A study of Mus musculus with 9 samples.

Results

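Cyp4a10, Cyp4a14, Cyp4a31 and Cyp4a32 are cytochrome P450 genes of the Cyp4a subfamily, the fatty acid omega-hydroxylases of mouse liver. These 4 genes were followed in RNA-seq of adult liver, for which the deposited table lists 1525 genes that differed between 2 genotypes. The 4 members were found by symbol in that list, and they were chosen by the values that are given here, the mean estimated count in each genotype and their ratio. The ratios are therefore a description and carry no test. Alb-D2KO mice, on a C57BL/6 background, had Dio2 inactivated in hepatocytes by a floxed Dio2 allele and Cre recombinase driven by the albumin promoter. Control mice of the same strain carried the albumin-driven Cre alone, so that Cre was shared by both genotypes. Whole adult liver gave 5 libraries of control and 4 of Alb-D2KO mice by the labels, which say nothing of age in weeks, sex or litter. Dio2 encodes the type 2 deiodinase, which makes active thyroid hormone (T3) from thyroxine in the newborn liver, and the study asked what loss of that enzyme leaves behind in the adult. Dio2 had no row in the list, so its level could not be used to check the labels.

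Cyp4a enzymes sit in the endoplasmic reticulum and add a hydroxyl group to the last (omega) carbon of a fatty acid. Alcohol and aldehyde dehydrogenases then oxidise that end to a second carboxyl group, and the resulting dicarboxylic acid is shortened in peroxisomes. In rodent liver these genes are classical targets of PPAR-alpha, the nuclear receptor that is activated by fatty acids and fibrate drugs and that binds DNA together with RXR. Their transcripts are known to rise in fasting and after peroxisome proliferators.

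The coding sequences show how alike the members are. The loop that holds the heme iron is shown because it is the catalytic core of every P450. It was located as the only match, in each translated coding sequence, to the P450 pattern of a phenylalanine, glycine, arginine, cysteine and glycine at fixed spacing. Each line gives 60 coding bases, 5′ to 3′, with the 30 bases of the loop in capitals.
Cyp4a10: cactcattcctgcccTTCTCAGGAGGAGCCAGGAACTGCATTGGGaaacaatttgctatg
Cyp4a14: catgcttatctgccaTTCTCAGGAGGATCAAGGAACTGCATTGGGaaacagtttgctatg
Cyp4a31: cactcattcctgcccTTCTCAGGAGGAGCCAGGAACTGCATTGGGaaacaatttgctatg
Cyp4a32: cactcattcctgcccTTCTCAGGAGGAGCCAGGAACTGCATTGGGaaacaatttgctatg
Over these bases Cyp4a31 and Cyp4a32 had 0 differences from Cyp4a10, and Cyp4a14 had 9. In each gene the stretch begins in exon 11 and ends in exon 12, with the intron between them left out. On mm10 its outer bases lie at chr4:115529487-115532558 for Cyp4a10, chr4:115487284-115489820 for Cyp4a14 on the minus strand, chr4:115574935-115577963 for Cyp4a31 and chr4:115614865-115621461 for Cyp4a32.

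The second set is the stretch of 60 coding bases within a single exon where Cyp4a31 and Cyp4a32 differed most from Cyp4a10. It is shown because, within the coding sequence, only bases that differ let a read be placed on one of the 3. It lies in exon 2 of all 4 genes. Capitals mark bases that differ from Cyp4a10 at the same aligned position.
Cyp4a10: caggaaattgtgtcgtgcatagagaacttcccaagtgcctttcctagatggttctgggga
Cyp4a14: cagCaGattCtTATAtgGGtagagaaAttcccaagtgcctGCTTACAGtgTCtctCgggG
Cyp4a31: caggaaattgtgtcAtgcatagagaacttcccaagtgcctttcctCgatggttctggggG
Cyp4a32: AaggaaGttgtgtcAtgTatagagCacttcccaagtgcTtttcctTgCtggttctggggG
Here Cyp4a31 differed from Cyp4a10 at 3 bases, Cyp4a32 at 9 and Cyp4a14 at 22. The mm10 positions are chr4:115519654-115519713 for Cyp4a10, chr4:115494947-115495006 on the minus strand for Cyp4a14, chr4:115565034-115565093 for Cyp4a31 and chr4:115602284-115602343 for Cyp4a32.

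Over the whole coding sequence Cyp4a10, Cyp4a31 and Cyp4a32 formed a close trio and Cyp4a14 stood apart. Cyp4a10 was 96.6% identical to Cyp4a31 (52 differences in 1527 aligned bases) and 97.2% identical to Cyp4a32 (43 differences). Cyp4a31 and Cyp4a32 were 96.0% identical. Cyp4a14 was 75.3% identical to Cyp4a10, with 375 differences in 1521 aligned bases. The longest run of identical bases was 186 between Cyp4a10 and Cyp4a31, 179 between Cyp4a10 and Cyp4a32 and 23 between Cyp4a10 and Cyp4a14.

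Sharing over whole transcripts was scored by the 31-base words of each gene, as the percentage that also occur in a transcript of another gene, on either strand. It was 62.8% for Cyp4a32, 44.9% for Cyp4a10, 32.0% for Cyp4a31 and 1.99% for Cyp4a14. For Cyp4a10 and Cyp4a32 all of this sharing lay within the 4 members (0% of words occurred only in genes outside them). Of the Cyp4a10 words, 36.5% occurred in Cyp4a32 and 26.5% in Cyp4a31. With words of 100 bases the shares were 18.2% for Cyp4a32, 12.2% for Cyp4a10, 7.33% for Cyp4a31 and 0% for Cyp4a14. The order of the 4 genes was thus the same at both word lengths. The authors' counter divides a read that fits several genes among them, so the values of Cyp4a10, Cyp4a31 and Cyp4a32 are uncertain one by one, and their sum is given beside them.

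The deposited sums of the trio were not whole numbers. Over the 4 Alb-D2KO libraries the estimated count was 1119.50 for Cyp4a10, 153.12 for Cyp4a31 and 498.38 for Cyp4a32, and the 3 together made 1771.00. Over the 5 control libraries they were 8000.31, 459.33 and 1271.39, which together made 9731.02. The fractions of the 3 genes therefore cancelled to within 0.02 of a whole read in their sum. Cyp4a14 was at 878.00 and 5368.99, each within 0.01 of a whole number on its own.

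The family was lower in Alb-D2KO liver by 4.56-fold. The summed mean of the 4 members was 3020 estimated counts per library in control and 662 in Alb-D2KO, a ratio of 0.219. Because the deposited means appear not to be scaled for depth, the same sums were set over the reads assigned to genes. Per 1000000 assigned reads, the family then took 90.2 in control and 21.2 in Alb-D2KO, which is a 4.25-fold difference. The 95% exact binomial interval of the unscaled ratio ran from 0.210 to 0.229. This interval covers counting error only, and says nothing about the spread between animals. Per-library values of a gene were not analysed here, so no SD can be given for any member, and whether the genotypes overlapped animal by animal is not known.

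Cyp4a10, known to be induced by fibrates and fasting, had the highest level and the lowest ratio. Its mean was 1600 estimated counts in control and 280 in Alb-D2KO. The ratio was 0.175, or 5.72-fold lower (log2 -2.52, counting interval 0.164 to 0.186). It accounted for 56.0% of the difference between genotypes in the family sum. Among the 1525 listed genes it stood at rank 4 from the lowest ratio and at rank 355 from the highest summed count. Of 881 listed genes summing to 1000 estimated counts or more, 1 had a lower ratio.

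Cyp4a14, which is known to be strongly induced by PPAR-alpha ligands and in fatty liver, moved almost as far. Its mean was 1074 estimated counts in control and 219.5 in Alb-D2KO. The ratio was 0.204, or 4.89-fold lower (log2 -2.29, counting interval 0.190 to 0.220), at rank 8 from the lowest. As none of its 100-base words occurred in another gene (0%), its value rests little on how reads were divided. The ratio of Cyp4a14 was 1.17 times that of Cyp4a10. Their counting intervals did not overlap, but without the spread between animals they cannot be put in order.

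Cyp4a31 and Cyp4a32 are less studied near copies of Cyp4a10 and had smaller differences. Cyp4a32 averaged 254 estimated counts in control and 125 in Alb-D2KO, a ratio of 0.490 or 2.04-fold lower (log2 -1.03, counting interval 0.440 to 0.543). Cyp4a31 was the lowest member, with a mean of 91.9 in control and 38.3 in Alb-D2KO, a ratio of 0.417 or 2.40-fold lower (log2 -1.26, counting interval 0.345 to 0.501). The counting intervals of these 2 genes overlapped. The ratio of Cyp4a32 was 2.80 times that of Cyp4a10, and the ratio of Cyp4a31 was 2.38 times that of Cyp4a10. For the sum of Cyp4a10, Cyp4a31 and Cyp4a32, on which the division of reads within the trio has no bearing, the mean was 1946 in control and 443 in Alb-D2KO, a ratio of 0.227 or 4.40-fold lower.

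**Figure D1:**
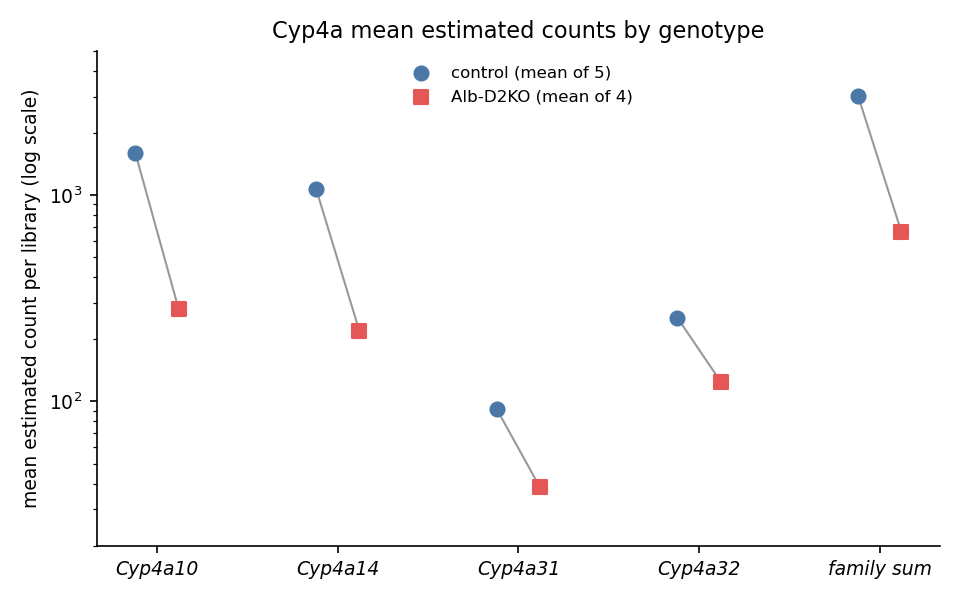
Mean estimated count per library (log axis) of each Cyp4a member and of their sum, with circles for the mean of 5 control and squares for the mean of 4 Alb-D2KO libraries; there are no error bars because the means came without a spread. Each square lies under its circle, with the steepest lines for Cyp4a10 (1600 to 280) and Cyp4a14 (1074 to 219.5).

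With these unequal ratios the estimated make-up of the family differed between genotypes. The single shares of Cyp4a10, Cyp4a31 and Cyp4a32 depend on how shared reads were divided. Together these 3 made up 64.4% in control and 66.9% in Alb-D2KO. The spread of any share between animals is not known. Cyp4a10 made up 53.0% of the family's estimated count in control and 42.3% in Alb-D2KO. Cyp4a14 held close to its share, at 35.6% and 33.1%. Cyp4a32 made up 8.42% in control and 18.8% in Alb-D2KO, and Cyp4a31 3.04% and 5.78%. The order of the 4 genes by count was the same in both genotypes. Cyp4a10 was 6.29 times Cyp4a32 in control and 2.25 times in Alb-D2KO.

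Counts of genes of different length were compared per kilobase of annotated exon. In control the mean was 759 estimated counts per kb for Cyp4a10, 413 for Cyp4a14, 166 for Cyp4a32 and 36.6 for Cyp4a31. In Alb-D2KO it was 133 for Cyp4a10, 84.4 for Cyp4a14, 81.1 for Cyp4a32 and 15.3 for Cyp4a31. Per kb of annotated exon the order was unchanged in both genotypes, but Cyp4a14 and Cyp4a32 came close together in Alb-D2KO. The annotated exons of Cyp4a32 cover 1536 bases, of which 1527 are coding, against 2109 for Cyp4a10, 2601 for Cyp4a14 and 2509 for Cyp4a31, which have annotated untranslated ends. Per kb of coding length the control means were 1048 for Cyp4a10, 706 for Cyp4a14, 167 for Cyp4a32 and 60.2 for Cyp4a31. The Alb-D2KO means were 183, 144, 81.6 and 25.1 in the same order. Cyp4a14 and Cyp4a32 were thus not close per kb of coding length.

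All 4 members were at least 2-fold lower, as were 248 of the 1525 listed genes, or 16.3%. After division by the genotype ratio of total reads the count was 153, by that of the median over genes 147, and Cyp4a32 was 1.84- and 1.82-fold lower. The list itself leaned to lower genes, with 1363 below a ratio of 1 (89.4%), and the median ratio over all listed genes was 0.686. The median over the members was 0.311. Since the members were picked on these ratios, nothing is read from that contrast. The median summed count of the members was 4008 against 1797 over the list. Cyp4a10 and Cyp4a14 lay above the list median, whereas Cyp4a32 (1770) and Cyp4a31 (612) lay below it. Many of the other genes at least 2-fold lower had few reads, and 36 of the 248 had a summed count of at least 1000, Cyp4a10, Cyp4a14 and Cyp4a32 among them.

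**Figure D2:**
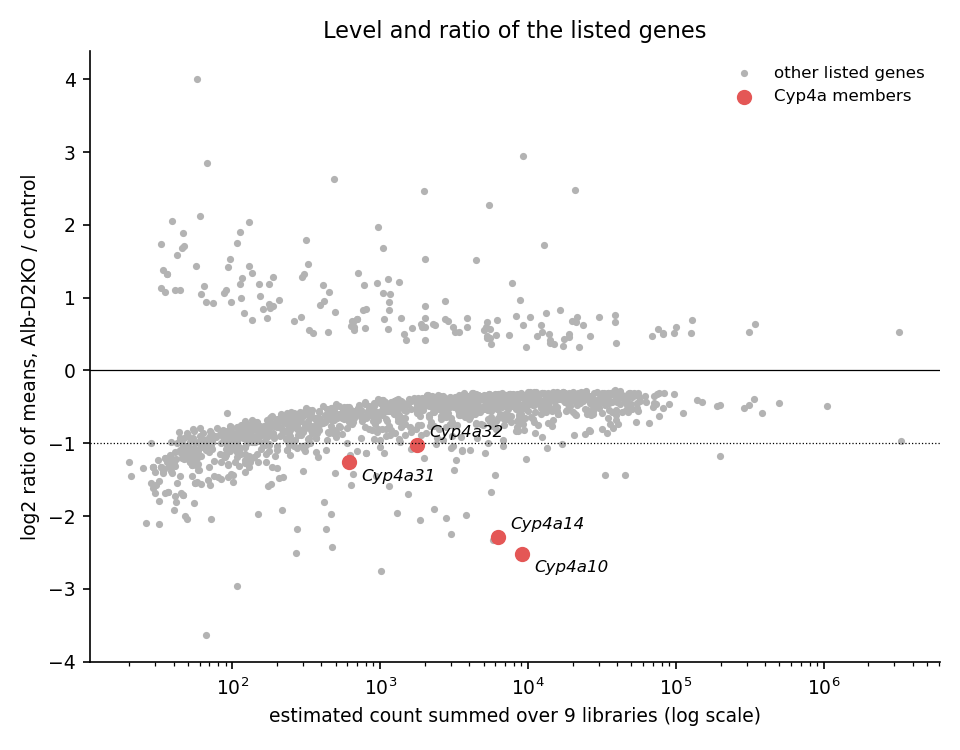
Log2 ratio of the mean estimated count in Alb-D2KO over control against the estimated count summed over 9 libraries (log axis), with grey points for other listed genes, red points for the 4 members and a dotted line at 2-fold lower. Cyp4a10 (log2 -2.52) and Cyp4a14 (log2 -2.29) lie below nearly all genes of like count, whereas Cyp4a31 (log2 -1.26) and Cyp4a32 (log2 -1.03) lie near the dotted line; the gap around 0 holds no points because smaller differences are not listed.

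Depth differed little between genotypes and in the same direction as the ratios. Control libraries held on average 33491489 ± 3199891 reads assigned to genes (SD, n = 5), and Alb-D2KO libraries 31223823 ± 3447612 (SD, n = 4). Their log2 difference, -0.10, did not exceed the spread of the libraries (exact permutation test, two-sided p = 0.302, where 0.0159 is the smallest possible). It was -0.18 without Alb-D2KO replicate 1 (exact permutation p = 0.0714). The ratios were next divided by the same genotype ratio of 4 depth measures, which were assigned reads, total reads and the upper quartile and median count over genes. The family ratio then lay between 0.235 and 0.247, or 4.06- to 4.25-fold lower. Cyp4a10 was likewise 5.09- to 5.33-fold lower, Cyp4a14 4.35- to 4.56-fold and Cyp4a31 2.13- to 2.24-fold. Cyp4a32 was 1.82- to 1.90-fold lower, so that it was no longer at least 2-fold lower under any of the 4 divisions.

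**Figure D3:**
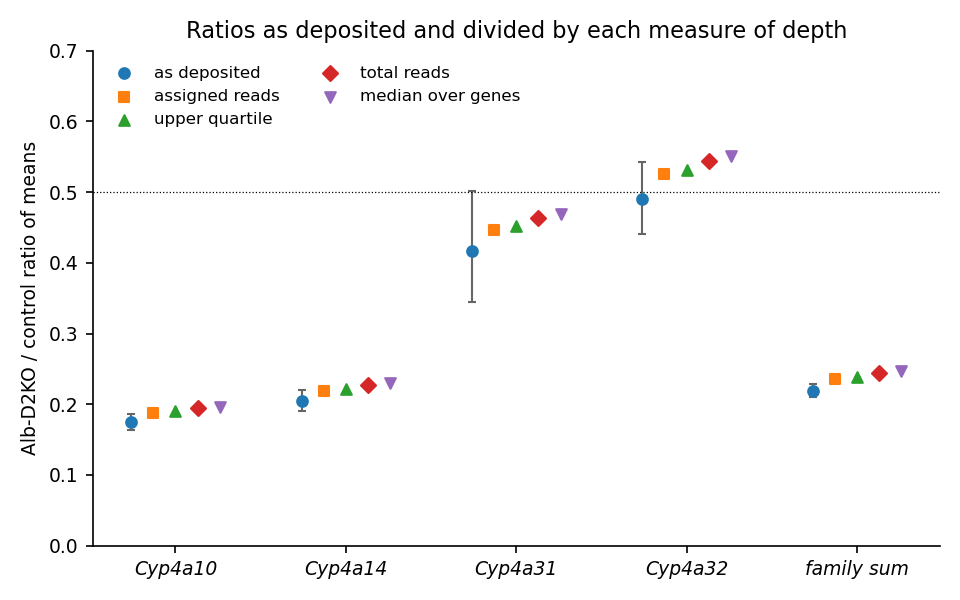
Ratio of the mean estimated count in Alb-D2KO over control for each member and the family sum, as deposited (circles, with the 95% counting interval) and divided by the genotype ratio of 4 measures of depth (other symbols), with a dotted line at 0.5. Every division raised the ratio by a small step, and Cyp4a32 alone crossed the line, from 0.490 to between 0.526 and 0.551.

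The 4 members lie side by side. On mm10 Cyp4a14 (ENSMUSG00000028715.2) spans chr4:115486200-115496142 on the minus strand. Cyp4a10 (ENSMUSG00000066072.13) spans chr4:115518264-115533649, Cyp4a31 (ENSMUSG00000028712.12) chr4:115563649-115579015 and Cyp4a32 (ENSMUSG00000063929.6) chr4:115600969-115621602, all on the plus strand. Together they take up 135 kb, with 2 Cyp4b1 pseudogenes between them and no other annotated gene. The Cyp4a cluster holds 8 protein-coding genes over 380 kb. The other 4, Cyp4a29, Cyp4a12a, Cyp4a12b and Cyp4a30b, are all on the Cyp4a14 side and had no row in the list. Cyp4a12a, which encodes the main arachidonic acid omega-hydroxylase of male mice, was 80.2% identical to Cyp4a10 in coding sequence. A gene without a row has no value here, and it may have been unchanged, unmeasured or short of the authors' thresholds.

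Within 500 kb of the cluster 26 other protein-coding genes are annotated, and 1 of them was listed (3.85%), near the 4.21% of all protein-coding genes listed as lower. This was Stil, a centriole duplication factor, whose mean ratio was 0.469 at a summed count of 55. Cyp4x1 and Cyp4b1, the P450 genes that flank the cluster, were not listed.

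**Figure D4:**
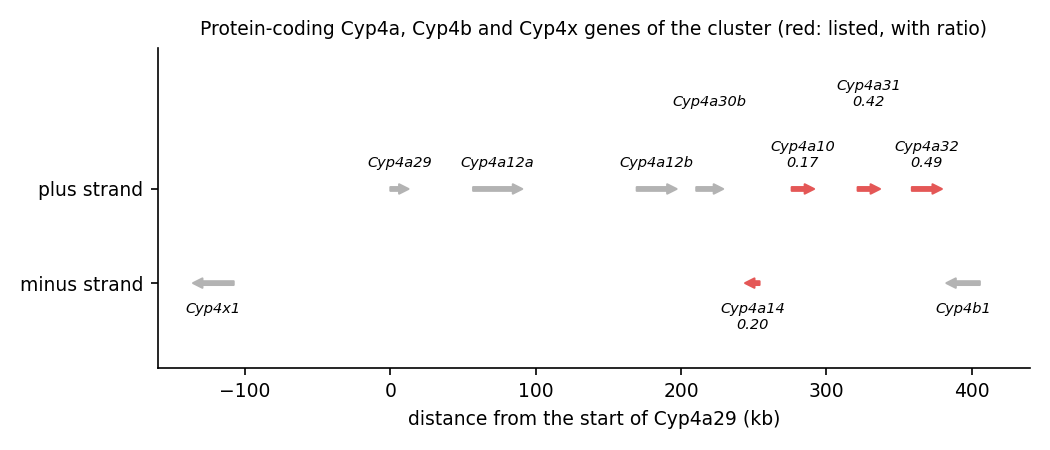
Protein-coding Cyp4a, Cyp4b and Cyp4x genes of the cluster, drawn to scale by distance in kb from the start of Cyp4a29, with arrows in the direction of transcription, listed genes in red with their Alb-D2KO over control ratio and unlisted genes in grey. The 4 listed genes form an unbroken block at one end of the cluster, with ratios of 0.17 to 0.49.

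Of the promoter windows given by RefSeq (GRCm38.p6, 250 bases before to 50 after the start), 1 member, Cyp4a32, had an entry; Cyp4a10, Cyp4a14 and Cyp4a31 had none. The element that PPAR-alpha and RXR bind is known as DR1, which is a pair of AGGTCA half-sites with 1 base between them. It was searched on both strands, with at most 2 mismatches over the 12 bases. The Cyp4a32 window held no such match, and its nearest stretch had 3 mismatches. Over all 32851 windows 3.86% held a match with up to 2 mismatches and 24.6% with up to 3. The windows are short, and elements farther from the start would not be seen.

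The other listed P450 genes differed in both directions. Of 96 annotated protein-coding P450 genes outside the members, 13 were listed, 10 lower and 3 higher, where over all annotated protein-coding genes, expressed in liver or not, 4.21% were listed as lower. The 3 higher were Cyp21a1, the steroid 21-hydroxylase (ratio 2.53), Cyp2d34 (2.16, with a summed count of 41.1) and Cyp2d40 (1.42). Among those summing to 100 or more, the lowest ratios were in 3 Cyp2c genes, a subfamily that oxidises drugs and polyunsaturated fatty acids. Cyp2c38 had a mean of 436 in control and 209 in Alb-D2KO (ratio 0.479), Cyp2c55 a mean of 144 and 69.8 (ratio 0.484) and Cyp2c39 a mean of 20.6 and 11 (ratio 0.534). By these values Cyp4a10, Cyp4a14 and Cyp4a31 had lower ratios than any other listed P450 gene, and Cyp4a32 fell among the Cyp2c genes. The counting interval of Cyp4a31, 0.345 to 0.501, held the ratios of Cyp2c38 and Cyp2c55. Since the members were picked on these ratios, nothing is read from that order. Cyp4f17 was the only other listed gene of the 20 protein-coding Cyp4 genes, with a mean of 360 in control and 245 in Alb-D2KO (ratio 0.681).

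A list of 26 genes that work with or after omega-hydroxylation covered the partners of the P450 reaction, the dehydrogenases and peroxisomal oxidation. Of these 10 were listed, all 10 lower, with ratios of 0.522 to 0.813 and a median of 0.702, against the median of 0.686 over all listed genes. As a background, 4.21% of annotated protein-coding genes, expressed in liver or not, were listed as lower. Of all listed genes 89.4% were lower. The other 16 genes have no value here. The genes that pass electrons to P450, Por, Cyb5a, Cyb5b and Cyb5r3, had no row. Of the enzymes that oxidise omega-hydroxy fatty acids, the alcohol dehydrogenase Adh7 had a ratio of 0.701 and the fatty aldehyde dehydrogenase Aldh3a2 a ratio of 0.704. Acsl1, which activates fatty acids to acyl-CoA, was at 0.722, and Abcd2, a peroxisomal importer of very long-chain acyl-CoA, was lowest of the 10 at 0.522.

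Among the listed peroxisomal enzymes, Ehhadh, the bifunctional enzyme that is needed for dicarboxylic acids, averaged 5200 in control and 3398 in Alb-D2KO, a ratio of 0.653, and the thiolase Acaa1b was at 0.715. Crot, a carnitine acyltransferase, was at 0.690, and Decr2, a reductase for unsaturated acyl-CoA, at 0.813. Acot4, a peroxisomal thioesterase for succinyl-CoA and dicarboxylyl-CoA, was at 0.549. None of the 10 listed genes was at least 2-fold lower (0 of 10), beside 16.3% of all listed genes. All 10 had a summed count of at least 1000, and of the 881 listed genes with such a count 36 were at least 2-fold lower. That 0 of 10 were is therefore not read as a result about these genes.

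The wider set of 43 PPAR-alpha targets, without the members, had 22 genes listed, all 22 lower, with a median ratio of 0.719. Again 4.21% of annotated protein-coding genes, expressed in liver or not, were listed as lower. Over all listed genes 89.4% were lower, with a median ratio of 0.686. The target list was written with earlier results of these data known. At least 2-fold lower were 4 of the 22, beside 16.3% of all listed genes. Of the 22, 20 had a summed count of at least 1000, where 36 of 881 listed genes were at least 2-fold lower. Of the 4, only Acot1 and Acot3 reached that count. The 3 lowest were the acyl-CoA thioesterases Acot3 (mean 181 in control and 26.9 in Alb-D2KO, ratio 0.149), Acot2 (ratio 0.457) and Acot1 (ratio 0.464). They are close paralogs of one another, so their single values carry the same doubt as those of the Cyp4a trio. Acot3 was the only 1 of the 22 with a ratio below that of Cyp4a10. More abundant listed targets were nearer to 1, among them Acsl1 (0.722), Acaa1b (0.715), Aldh3a2 (0.704) and Retsat (0.611), a retinol saturase. Both lists share 7 genes, which are 26.9% of the first and 16.3% of the second.

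Of 18 genes for PPAR-alpha itself, its relatives and its cofactors, 3 were listed, all lower. Beside this, 4.21% of protein-coding genes were listed as lower, and 89.4% of listed genes were lower. Ppara and its partner Rxra had no row. Pparg, the adipogenic relative of Ppara, was at a ratio of 0.650, the coactivator Ppargc1b at 0.720 and the corepressor Ncor1 at 0.804.

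**Figure D5:**
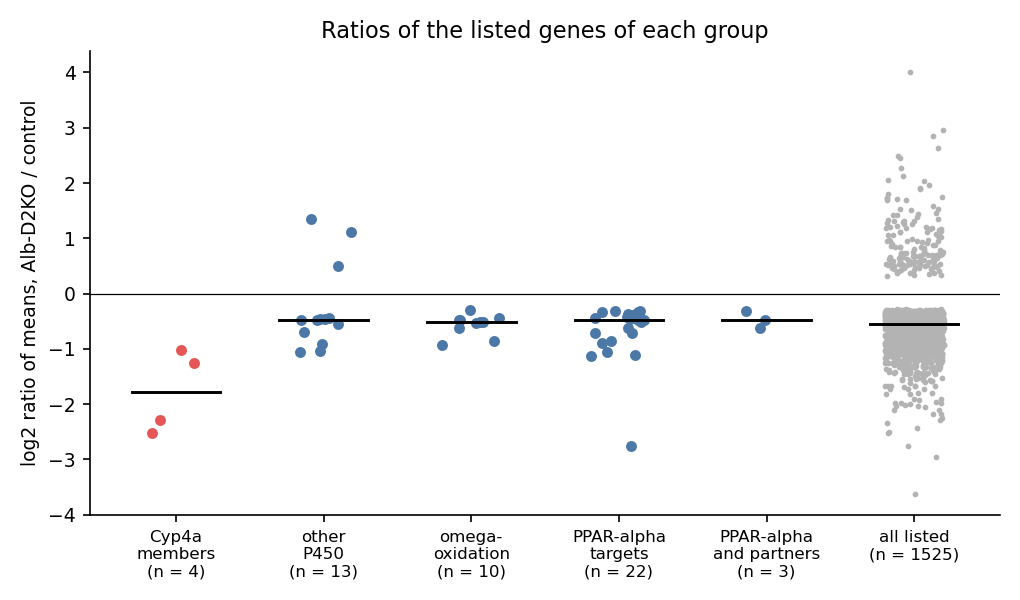
Log2 ratio of the mean estimated count in Alb-D2KO over control for the listed genes of each group, 1 point per gene, with black bars at the median and every listed gene at the right in grey. The 4 members span log2 -2.52 to -1.03, the omega-oxidation and PPAR-alpha target genes are all below 0 and mostly above the members, and the other P450 genes fall on both sides of 0; genes without a row are absent from every column.

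Genes were also compared by the likeness of their ratio to that of the family sum, over the 2 genotype means. The nearest 5, among listed genes summing to 100 or more, were Gm28182, a lincRNA (ratio 0.220), Crybg2 (0.221), Gadd45g, a stress-responsive gene (0.211), Mt2, a metallothionein (0.240), and Cish, an inhibitor of cytokine signalling (0.199). With 2 values per gene a like ratio says nothing of a like pattern across animals.

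Each library came from whole liver, where fewer hepatocytes and less RNA per hepatocyte cannot be told apart. None of 5 hepatocyte markers had a row (0 of 5), and the same held for 4 Kupffer cell and 4 stellate cell markers. Over all 25 markers 16% were listed, 3 as lower and 1 as higher, where 4.21% of annotated protein-coding genes were listed as lower. A marker without a row has no value here and may or may not have changed. Of 4 endothelial markers Stab2 (ratio 0.805) and Kdr (0.789) were listed, of 4 cholangiocyte markers Sox9 (1.51) and of 4 lymphocyte and neutrophil markers Cd3e (0.520, with a summed count of 126). Their part in the Cyp4a difference was not tested. On the log2 scale Cd3e was at -0.94 and Cyp4a32, the member that differed least, at -1.03. With no value for any hepatocyte marker, the share of hepatocytes in each liver is not known.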

How the data were processed

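RNA of 9 adult livers was sequenced. The authors aligned the reads with STAR to mm10 and estimated counts for GENCODE M24 genes by expectation-maximisation in Partek Flow, which divides shared reads. Whether strand was used is not stated in the sources used here. The authors' deposited gene table gives estimated counts summed over libraries and averaged by genotype, for the genes that passed their p and fold thresholds (smallest listed fold 1.21). It also holds their ratios, fold changes, p-values and false discovery rates, which were not used, nor were 2 deposited enrichment tables. In 1525 of 1525 genes the summed count equalled the total implied by the 2 means to within 0.0001%, so that no depth scaling separates them. This alone would also hold if all were scaled alike. Both genotype sums were whole numbers, to within 0.01, in 871 of the 1525 genes (57.1%), which scaled counts would rarely be. The paper calls its counts normalised by absolute value, without further detail. The deposited library tables give read counts, the percent of reads fully within an exon, and the mean, median and upper quartile count over genes; 10 other columns per library were not used. Replicate numbers follow accession order and pair no samples, and where the labels do not say that libraries came from separate animals the p-value measures only the spread between these samples.

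Ratios were computed from the genotype means, with exact binomial 95% intervals on the rounded sums, which cover counting error only. Assigned reads, total reads times the percent within an exon, were compared on the log2 scale by an exact permutation test over 126 splits. Depth ran from 40234632 to 54504351 reads per library. Annotation and transcripts were GENCODE M21, the same build in an earlier release; 1496 symbols matched. Coding sequences were aligned with MAFFT 7.526 and translated with Biopython 1.88. Python 3.11.15, NumPy 2.4.6, pandas 2.3.3 and SciPy 1.17.1 were used, and the scripts were tested on simulated data. The members and gene lists were chosen with earlier results of these data known. Named genes were the members, other Cyp4 genes, listed genes within 500 kb, the 3 lowest other P450 genes summing to 100 or more, listed omega-oxidation genes, the 5 most abundant and 3 lowest PPAR-alpha targets, and the 5 nearest ratios. Genes of the lists named as without a row, the listed PPAR-alpha partners and the markers were added to these after the values were seen. A gene that the rule selects is not reported here. Alternatives were the 4 depth divisions, other fold, count, word length and mismatch limits, and leaving out members or libraries.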

Additional observations from a re-analysis of the deposited data

Results flagged for a closer look

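Alb-D2KO replicate 1 had 50322325 total reads, against 41723927 in the next highest library of its genotype. The gap was 0.852 of the range of the 4 libraries. Of 12 groups of library measures examined this was the only 1 to stand apart in this way, where chance gives about 0.6. The same library was also the highest of its genotype in assigned reads, at 36332719 against 30173787 in the next. The part of Alb-D2KO replicate 1 in the Cyp4a means was not tested, as single genes in single libraries were not analysed here.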

How the results depend on the processing

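The family ratio of 0.219 stayed under 0.5 in all 8 alternatives. It was 0.235 after division by assigned reads, 0.244 by total reads, 0.238 by the upper quartile and 0.247 by the median over genes. Without Cyp4a10 it was 0.269 and without Cyp4a32 0.194. Genes at least 2-fold lower numbered 248, against 688 at 1.5-fold, 42 at 3-fold, 120 with a summed count of at least 100, 36 with at least 1000, 153 after division by total reads and 147 by the median. The cause of each shift was not tested beyond the change of limit or scale itself. The log2 difference in assigned reads ranged from -0.18 to -0.06 when 1 library was left out. DR1 matches occurred in 0.554% of windows with 1 mismatch. Of the PPAR-alpha targets 20 of the 22 had a summed count of at least 1000, all lower. No paired analysis was possible because replicate numbers follow accession order and the gene values are means by genotype. Leaving out a library could not be run for the members for the same reason, so the weight of any 1 library in their means was not tested.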
